A study of Arabidopsis thaliana with 79 samples.

Results

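The hypoxia response of the root line pPEP, labelled root cortex, was measured on 4 of the 79 arrays of a series on cell populations of Arabidopsis thaliana seedlings. The members were taken by their labels: 2 arrays from seedlings held for 2 h in argon (hypoxia) and 2 from seedlings held for 2 h in air (control). Every probe set other than the chip's AFFX controls was compared, 22746 in all, with no filter on low values. Each value is a log2 signal, so a difference of 1 between groups is a 2-fold change.

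Both pPEP groups came from 7-day-old Col-0 seedlings of genotype pPEP:His6FLAG-RPL18B, in which the PEP promoter drives an epitope-tagged ribosomal protein L18, so the controls carry the transgene too. The tagged ribosomes were captured from dissected roots with anti-FLAG beads, and the messenger RNA bound to them (polysomal RNA) was put on Affymetrix ATH1 arrays. The cells sampled are those in which the promoter is active in the root, and the labels do not say how many seedlings went into an array or whether the line is 1 transformant. The other root lines carry the same tag under another promoter and had the same treatments: pSCR, pSHR, pWOL, pGL2, pSUC2, pCO2 and pRPL11C (29 arrays) were measured in both conditions, pSultr2;2 in control only (2 arrays), and p35S, a promoter active in most cells, on 5 arrays.

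Plant cells that run short of oxygen move from respiration to ethanolic and lactic fermentation. Transcription factors of the group VII ERF family, which are degraded while oxygen is present, then switch on a small set of hypoxia genes while energy-costly processes such as wall building and growth are curtailed. The cortex is the ground tissue between the epidermis and the endodermis of the root, where gas-filled spaces and cell expansion are prominent. RNA bound to ribosomes reflects both how much of a messenger is present and how far it is being translated.

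The pPEP label was first set against cortex markers in the control arrays. AT1G09750, the gene from which the PEP promoter was taken, read 10.12 and 10.38 log2 units in the pPEP line. Its mean in each of the other root lines was lower, between 5.96 in p35S and 8.93 in pCO2, and pPEP stood above the mean of 8 other promoter lines by 2.50 ± 0.29 (SE, adjusted p = 1.7e-09). The cortex marker AT1G62510 stood apart further, at 9.34 and 9.65 in pPEP against line means of 5.63 to 6.55, a difference of 3.35 ± 0.26 (SE, adjusted p = 3.7e-14). NPF6.4 (AT3G21670), a nitrate transporter family member listed as a cortex marker, was higher in pPEP by 0.61 ± 0.21 (SE, adjusted p = 0.0212) but was highest in pSCR, at 9.41. AT1G62500, the gene of the CO2 promoter, was near 5 in every root line, with pPEP higher by 0.32 ± 0.17 (SE, adjusted p = 0.166). By the call rule of adjusted p under 0.05 and a log2 difference of at least 1, the pPEP controls had 5.16% of all probe sets higher and 6.1% lower than the other lines. The pPEP population also had less RNA of the mitotic kinases AUR1 and AUR2 (-1.80 and -1.83 log2 units against the other lines), of the replication gene PRL (-1.59) and of the root hair expansins EXPA7 (-1.77) and EXPA18 (-1.65), while the endodermal receptor kinase GSO1 was higher (1.09). GSO1, the 1 measured of 13 listed endodermis markers, was highest in pSCR, with a control mean of 10.22 there against 9.17 in pPEP. In such bulk RNA, fewer cells of a type and less RNA per cell cannot be told apart. None of the listed stele, root cap or non-hair epidermis markers has a named probe set here.

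**Figure D1:**
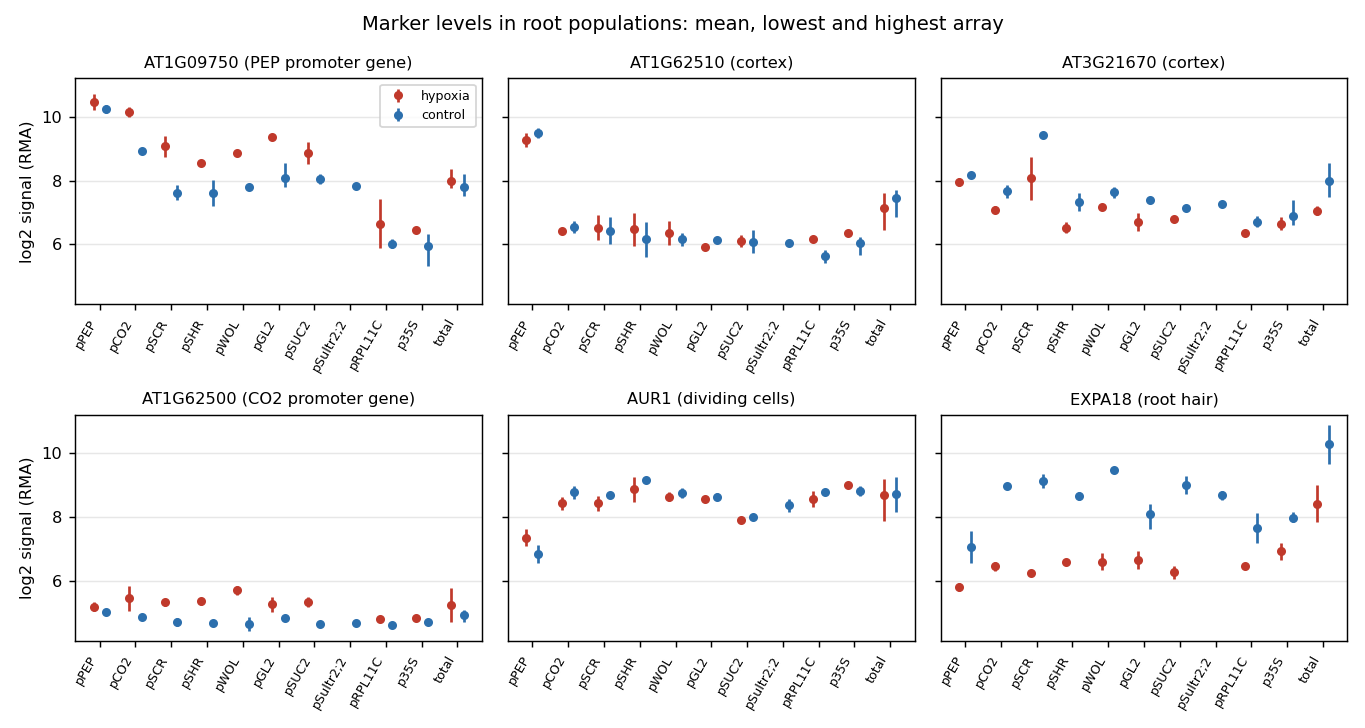
Log2 signal of 4 cortex markers, 1 marker of dividing cells (AUR1) and 1 of root hairs (EXPA18) in each root population, hypoxia left of control, points at the mean and bars from the lowest to the highest array. The points marked total (4 control and 3 hypoxia arrays) are whole-root total RNA, not RNA captured on tagged ribosomes. AT1G09750 and AT1G62510 are highest in pPEP, AUR1 and EXPA18 lowest there in control, and AT1G62500 lies near 5 in all control populations.

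Under hypoxia the 4 measured cortex markers stayed below the call rule, with differences between -0.23 and 0.22. The median level over the 2 measured root hair markers, of 17 listed, was 5.47 and 5.85 under hypoxia, against 6.26 and 6.89 in control. The median over the 3 measured markers of dividing cells, of 12 listed, was 6.27 and 6.48 under hypoxia, against 6.34 and 5.93 in control. The part of these shifts in the responses of other genes was not tested.

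Replicate arrays were alike: they correlated at 0.987 under hypoxia and 0.975 in control over all probe sets, and arrays of different conditions at 0.948 to 0.955. The gap between the 3′ and 5′ actin control probe sets, a sign of how complete the RNA was, measured 4.41 and 4.41 under hypoxia, against 4.71 and 4.47 in control. The same gap for GAPDH was 1.80 and 2.22 under hypoxia, against 1.67 and 1.76 in control.

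Hypoxia left 799 probe sets higher (3.51%) and 663 lower (2.91%) than control in pPEP, by limma's moderated test with Benjamini-Hochberg adjustment over all 22746 probe sets. The excess of higher calls turned to 731 and 882 without control replicate 2, to 698 and 707 without hypoxia replicate 1, and to 1231 and 1575 with no minimum difference. The 4 arrays fitted alone gave 512 and 231. The largest rises were larger than the largest falls. At 4-fold or more, 275 probe sets were higher and 27 lower, at 8-fold 114 and 1, and at 16-fold 53 and 0. The probe sets that fell were mostly bright in control: their median control signal was 9.03, against 7.16 for those that rose and 6.42 for all probe sets. The control signal is itself a term of the difference called, and a dim signal has little room to fall. These levels are therefore partly set by the call rule. Of the 13513 probe sets with a single named gene, 427 were higher (3.16%) and 292 lower (2.16%), and only these can be described by gene.

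The 15 largest named rises were led by genes close to the floor of the array in air and among its brightest signals in argon. AT5G10040, a small protein gene, had 12.95 and 12.50 log2 units on the hypoxia arrays, against 4.29 and 4.43 on the control arrays, a rise of 8.36 ± 0.41 (SE, adjusted p = 1.0e-21) from control values so low that it can be read only as a lower bound. AT4G10270, which encodes a wound-responsive family protein, had 13.38 and 13.44 under hypoxia, against 4.78 and 5.35 in control, and AT1G19530 had 13.02 and 12.47 under hypoxia, against 5.37 and 4.92 in control. The groups of these genes lie more than 7 log2 units apart, while replicates differ by less than 1. CML38, a calmodulin-like calcium sensor that associates with RNA granules in hypoxia, measured 12.86 and 12.51 under hypoxia, against 5.34 and 5.90 in control (7.07 ± 0.38 SE, adjusted p = 2.4e-20). HRA1 (AT3G10040), a trihelix transcription factor that restrains the hypoxia response, had 12.34 and 11.89 under hypoxia, against 5.26 and 5.62 in control (6.67 ± 0.34 SE, adjusted p = 2.6e-21). WRKY22, a transcription factor of immunity and submergence responses, had 11.79 and 11.28 under hypoxia, against 5.50 and 5.34 in control (6.11 ± 0.52 SE, adjusted p = 4.2e-13). In each of these genes both hypoxia arrays lay above both control arrays by over 5 log2 units.

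The remaining large rises were AT4G24110 (6.35), AT4G33560 (6.11), the kelch-repeat gene AT3G27220 (6.08), the rhodanese-like AT2G17850 (5.99), AT4G39675 (5.84), AT3G23170 (5.70), AT4G27450 (5.27), the HAD-family hydrolase AT5G44730 (5.11) and AT2G41730 (4.79). AT2G41730 is read by a probe set that may also bind related transcripts, so its value is less certain. All 15 kept their call when any 1 of the 4 arrays was left out.

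**Figure D2:**
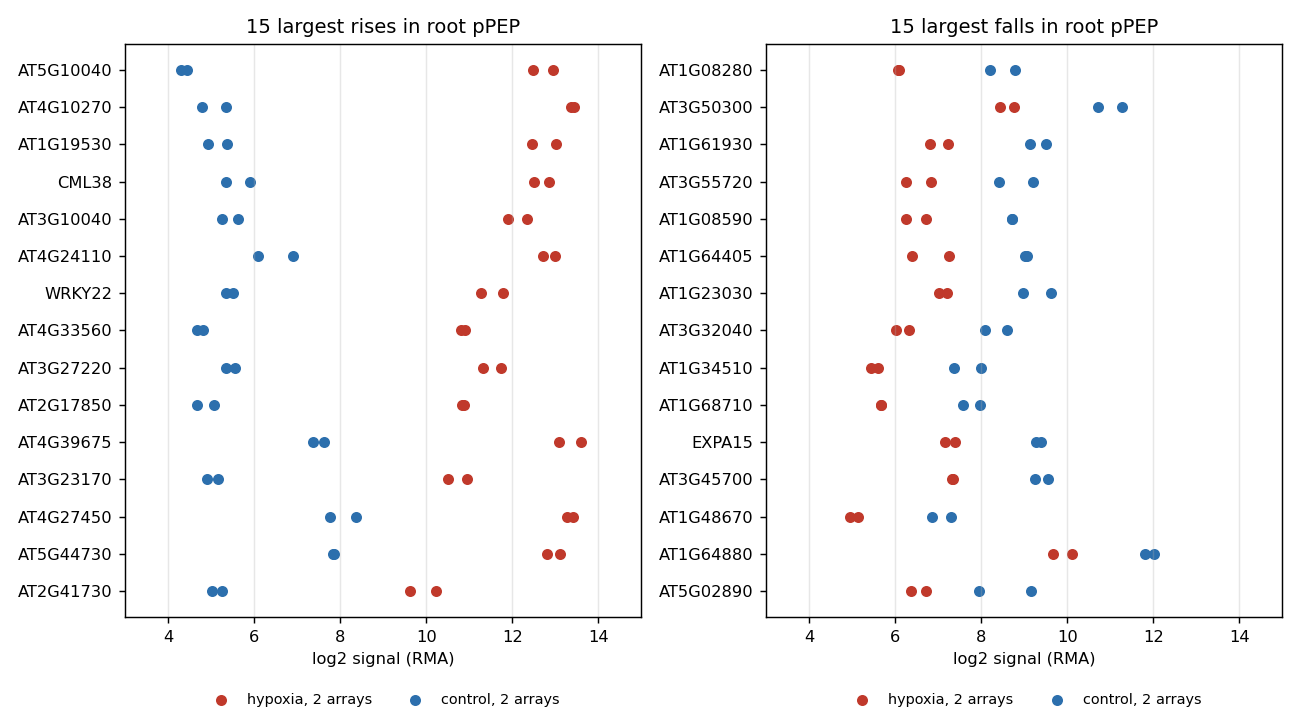
Log2 signal of the 15 named genes with the largest rise (left) and the 15 with the largest fall (right) in root pPEP, 2 hypoxia arrays in red and 2 control arrays in blue. The rising genes span 4.79 to 8.36 log2 units between groups and the falling genes 2.00 to 2.42.

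A list of 49 core hypoxia genes, which earlier work chose on these same samples and which is therefore no independent evidence of direction, had 24 members with a named probe set. Of these 23 rose and 0 fell, with a median difference of 4.78, against 3.51% higher, 2.91% lower and a median of -0.02 over all probe sets. The exception was AT5G45960 at 0.03. The median of the list ran from 4.46 to 5.16 in the 7 other promoter lines, so the size of the core response in pPEP fell inside their range. TIL, a temperature-induced lipocalin that protects membranes, had 13.50 and 13.23 under hypoxia, against 9.95 and 10.12 in control (3.33 ± 0.28 SE, adjusted p = 2.2e-13), and AT1G03610 rose by 4.38 ± 0.35 (SE, adjusted p = 8.4e-14). The smallest rise among the 23 was 1.65 for AT1G26270. A single core gene differed from the other lines in its response: AT4G27450 had 13.26 and 13.41 under hypoxia, against 7.76 and 8.37 in control. Its response was 1.12 ± 0.25 (SE, adjusted p = 0.0195) above the mean of the other 7, which ranged from 2.04 to 5.49. That difference was not checked with an array left out.

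Of the measured genes of anaerobic metabolism, pyruvate decarboxylase and lactate dehydrogenase genes rose, while 7 of 8 glycolytic genes were not called. PDC2, a pyruvate decarboxylase that makes acetaldehyde for ethanol production, had 13.48 and 13.16 under hypoxia, against 10.53 and 11.01 in control (2.55 ± 0.42 SE, adjusted p = 1.5e-05). AT4G17260, the lactate dehydrogenase gene, had 11.71 and 11.47 under hypoxia, against 8.29 and 7.53 in control (3.68 ± 0.28 SE, adjusted p = 1.1e-14). Of the 3 fermentation genes measured, of 17 listed, these 2 rose (3.51% of all probe sets did), and the aldehyde dehydrogenase ALDH7B4 differed by 0.69 ± 0.32 (SE, adjusted p = 0.176). Of 8 glycolytic genes measured, of 40 listed, 1 rose and 0 fell, with a median difference of 0.08. Over all probe sets 3.51% rose and 2.91% fell, with a median of -0.02. The 1 glycolytic riser was the fructokinase gene AT2G31390, with 13.72 and 13.58 under hypoxia, against 12.56 and 12.29 in control (1.22 ± 0.23 SE, adjusted p = 1.6e-04). Triose phosphate isomerase TPI differed by -0.19 ± 0.22 (SE, adjusted p = 0.703) and the glyceraldehyde phosphate dehydrogenase GAPC2 by -0.18 ± 0.25 (SE, adjusted p = 0.762), both already above 13 log2 units in control. In the list of genes induced when energy runs low, 2 of the 5 measured of 21 rose, against 3.51% of all probe sets. They were IVD, which acts in leucine breakdown, by 1.84 ± 0.33 (SE, adjusted p = 5.4e-05), and MCCA, a carboxylase subunit of the same pathway, by 1.57 ± 0.41 (SE, adjusted p = 0.0058). Without hypoxia replicate 1 MCCA differed by 1.50 at an adjusted p of 0.054 and was no longer called.

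Most measured members of the calcium and reactive oxygen list and of the WRKY and zinc finger list were higher under hypoxia. Grouping by symbol, after values had been seen, gave 1 riser among 7 calmodulin-like (CML) genes and 3 among 6 WRKY genes, with 0 falls. Over all probe sets 3.51% rose and 2.91% fell. In the list of calcium and reactive oxygen genes, 3 of the 4 measured of 17 rose, against 3.51% of all probe sets: CML38, its relative AT1G76640 (CML39), by 1.91 ± 0.31 (SE, adjusted p = 1.1e-05), and AT4G11230, an NADPH oxidase of the respiratory burst family, by 1.12 ± 0.31 (SE, adjusted p = 0.0104). CML37 differed by 0.81 ± 0.15 (SE, adjusted p = 8.9e-05), short of the 2-fold limit. Fitted with the 4 pPEP arrays alone, AT1G76640 (adjusted p = 0.064) and WRKY6 (adjusted p = 0.0992) were not called. The call of AT4G11230 was lost without control replicate 2 (0.99) or hypoxia replicate 1 (0.58). All 4 measured members, of 16 listed, of the WRKY and zinc finger list rose, set against the same 3.51%: WRKY22, the zinc finger repressor STZ with 9.58 and 9.56 under hypoxia, against 6.34 and 5.83 in control (3.49 ± 0.55 SE, adjusted p = 6.4e-06), the senescence and phosphate factor WRKY6 (1.81 ± 0.34 SE, adjusted p = 1.4e-04) and WRKY53 (1.46 ± 0.39 SE, adjusted p = 0.00766). WRKY53 was not called without control replicate 2 (1.35, adjusted p = 0.0677) or hypoxia replicate 2 (1.46, adjusted p = 0.0533).

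Of the hormone lists, the ethylene list had 1 riser and the auxin list 2, where 3.51% of all probe sets rose and 2.91% fell. ARL, the ARGOS-LIKE regulator of organ growth and ethylene sensitivity, had 12.00 and 12.04 under hypoxia, against 7.72 and 7.46 in control (4.43 ± 0.32 SE, adjusted p = 1.1e-15) and was the 1 riser among 3 measured ethylene genes of 22 listed. The ethylene transcription factor EIN3 differed by -0.78 ± 0.26 (SE, adjusted p = 0.0355), under the 2-fold limit, and the receptor regulator RTE1 by -0.28 ± 0.16 (SE, adjusted p = 0.303). The auxin-conjugating enzymes GH3.3 and WES1 rose, as 2 of 4 measured auxin genes of 21 listed. GH3.3 had 10.57 and 11.15 under hypoxia, against 6.37 and 6.50 in control (4.42 ± 0.40 SE, adjusted p = 2.7e-12) and WES1 had 10.89 and 10.61 under hypoxia, against 8.58 and 8.67 in control (2.12 ± 0.46 SE, adjusted p = 8.0e-04). GH3.1 and IAA29 differed by 0.28 and 0.06. Of 7 measured heat shock genes of 22 listed, 0 rose and 0 fell, with a median of 0.46 and a highest value of 1.32 ± 0.62 (SE, adjusted p = 0.177) for the small heat shock protein gene AT2G29500. The measured members of the mitochondrial alternative respiration list (2 of 11), the cytosolic ribosomal protein list (2 of 16) and the nitrogen list (1 of 21) gave 0 calls. At shares of 3.51% and 2.91%, 0 calls in so few genes cannot set these lists or the heat shock list apart from all probe sets. For aquaporins and jasmonate genes no listed member has a named probe set here.

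Of the 15 largest named falls, the first was that of AT1G08280, the glycosyltransferase GALT29A that builds wall arabinogalactans. It had 6.09 and 6.06 under hypoxia, against 8.19 and 8.79 in control, a change to 0.187 of control (-2.42 ± 0.42 SE, adjusted p = 3.0e-05). The acyltransferase-family gene AT3G50300 had 8.76 and 8.44 under hypoxia, against 10.72 and 11.27 in control (-2.39 ± 0.40 SE, adjusted p = 1.4e-05), and a second member of that family, AT5G02890, fell by 2.00 on the log2 scale. PXL1 (AT1G08590), a leucine-rich repeat receptor kinase related to the vascular receptor PXY, had 6.72 and 6.25 under hypoxia, against 8.71 and 8.72 in control (-2.23 ± 0.27 SE, adjusted p = 1.8e-08). AT1G64880, a ribosomal protein S5 family gene and the brightest of the 15, had 9.67 and 10.10 under hypoxia, against 11.81 and 12.01 in control (-2.03 ± 0.31 SE, adjusted p = 2.9e-06). The ubiquitin ligase gene AT1G23030 (-2.20), the peroxidase gene AT1G34510 (-2.15), the P4-type lipid flippase gene AT1G68710 (-2.1), the nitrate transporter family gene AT3G45700 (-2.06) and the GH3-family gene AT1G48670 (-2.04) fell as well. AT3G32040 (-2.18), AT1G61930 (-2.31), AT3G55720 (-2.27), AT1G64405 (-2.22) and the expansin EXPA15 (-2.07) complete the 15, all of which kept their call when any 1 array was left out. Fitted with the 4 pPEP arrays alone, AT5G02890 had an adjusted p of 0.0709 and was not called.

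Cell wall loosening genes moved in both directions. Of 26 measured expansins, xyloglucan endotransglucosylase/hydrolases (XTHs) and related genes, of 62 listed, 4 rose, 4 fell and 18 were not called, with a median of -0.28. Over all probe sets 3.51% rose and 2.91% fell. XTH18 had 9.77 and 9.55 under hypoxia, against 6.92 and 6.97 in control (2.71 ± 0.32 SE, adjusted p = 5.8e-09) and XTH19 had 9.53 and 9.43 under hypoxia, against 8.22 and 8.27 in control (1.23 ± 0.27 SE, adjusted p = 9.0e-04); XTHs cut and rejoin xyloglucan chains. The expansin-like genes EXLA3 (1.57 ± 0.25 SE, adjusted p = 1.1e-05) and EXLA1 (1.22 ± 0.26 SE, adjusted p = 8.1e-04) also rose, EXLA1 falling short of the 2-fold limit, at 0.99, without control replicate 2. Among the true expansins, which loosen walls in growing cells, EXPA15 had 7.39 and 7.15 under hypoxia, against 9.28 and 9.40 in control, EXPA4 had 6.20 and 6.17 under hypoxia, against 7.80 and 8.15 in control and EXPA18 had 5.68 and 5.93 under hypoxia, against 6.57 and 7.56 in control. The fall of EXPA4, -1.79 ± 0.57 (SE, adjusted p = 0.029), lost its call without any 1 of the 4 arrays (adjusted p between 0.065 and 0.159). That of EXPA18, -1.26 ± 0.32 (SE, adjusted p = 0.00439), was -0.76 without control replicate 2 and -1.13 without hypoxia replicate 1, neither of them called. XTH33 fell by 1.02 ± 0.25 (SE, adjusted p = 0.00301) and was not called without control replicate 2 (-0.90) or hypoxia replicate 1 (-0.97).

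The response of 3 wall genes in pPEP differed from the mean of the other 7 lines, which for this test had 0.255% of all probe sets higher in pPEP and 0.145% lower. XTH18 responded by 0.35 to 1.01 in the other lines, a difference of 1.99 ± 0.34 (SE, adjusted p = 6.6e-04). XTH19 responded by -0.73 to 0.21 elsewhere, a difference of 1.58 ± 0.29 (SE, adjusted p = 0.00169). EXPA7 responded in the other lines by values from -2.26 to -0.67 and differed by -0.59 ± 0.25 (SE, adjusted p = 0.127) in pPEP, where its control level was already low (5.96 and 6.22). That difference of responses was 1.12 ± 0.27 (SE, adjusted p = 0.0307). The differences of responses of XTH19 and EXPA7 were not checked with an array left out.

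**Figure D3:**
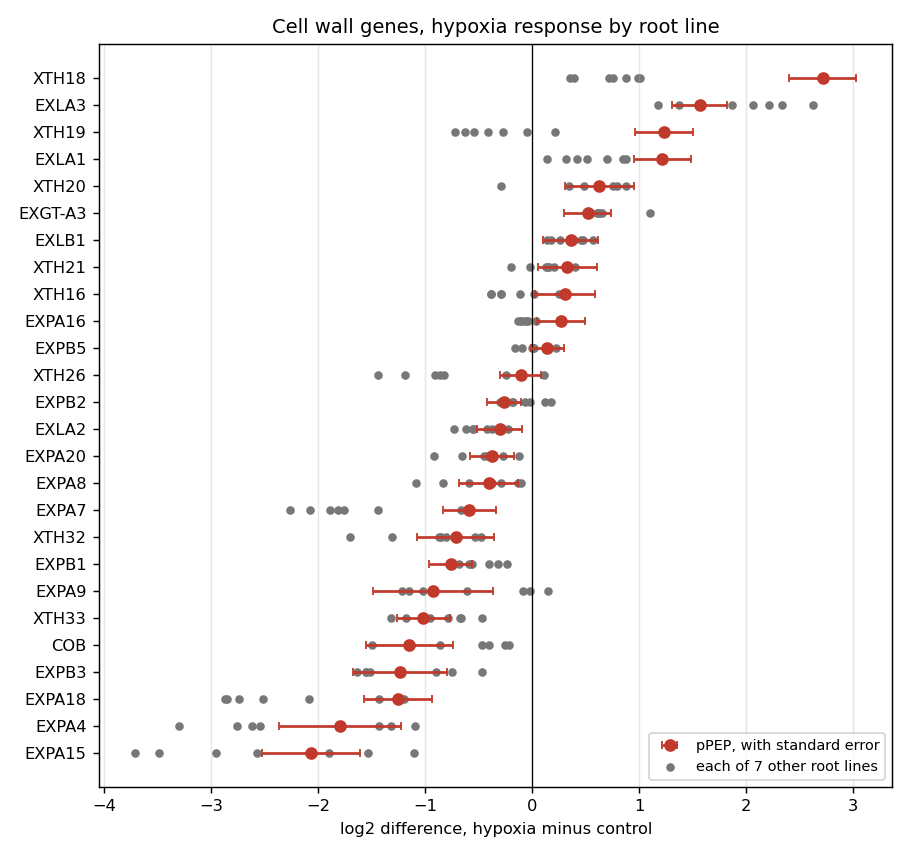
Hypoxia response (log2, hypoxia minus control) of 26 cell wall genes, pPEP in red with its standard error and each of 7 other root lines in grey. XTH18, XTH19 and EXPA7 lie right of all other lines.

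By the call rule, 58 probe sets (0.255%) had a higher and 33 (0.145%) a lower response in pPEP than the mean of the 7 others. These counts rest on the 4 pPEP arrays: they were 74 and 77 without control replicate 1, 29 and 47 without control replicate 2, 34 and 32 without hypoxia replicate 1, and 27 and 8 without hypoxia replicate 2. With each array centred on its median they were 51 and 44. The comparisons of pPEP with the other lines, with pCO2 and with p35S all use the same 4 pPEP arrays, so their values are given side by side and not as separate evidence.

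**Figure D4:**
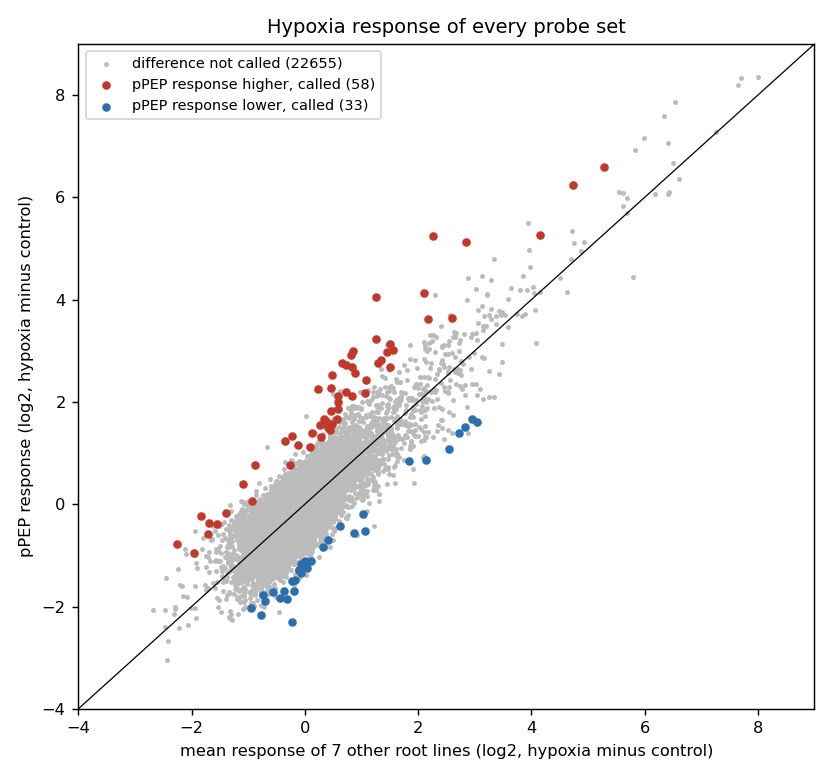
Hypoxia response of every probe set in pPEP (vertical) against the mean response of 7 other root lines (horizontal), both log2 hypoxia minus control, with the line of equal response. Red points (58) responded higher in pPEP and blue points (33) lower by the call rule.

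The 8 largest positive differences among named genes included 7 genes that rose in pPEP. AT1G14550, a class III peroxidase, had 7.41 and 6.82 under hypoxia, against 4.24 and 4.47 in control. It responded by 0.25 to 0.95 in the other lines, a difference of 2.1 ± 0.19 (SE, adjusted p = 9.9e-11). AT5G52670, a gene with a heavy-metal-associated domain, had 7.67 and 7.21 under hypoxia, against 4.55 and 4.50 in control, a difference of 2.1 ± 0.21 (SE, adjusted p = 3.7e-09) from lines that responded by 0.41 to 1.61. AT1G78410, a VQ-motif gene, had 7.31 and 6.67 under hypoxia, against 4.55 and 4.35 in control, and responses elsewhere were 0.28 to 0.73 (2.05 ± 0.37 SE, adjusted p = 0.00152). In these 3 genes the pPEP response lay above that of every other line. AT2G25460 (2.04), XTH18 (1.99), the pectin methylesterase-family gene AT3G10720 (1.86) and the lectin-family gene AT5G18470 (1.62) followed. The last of the 8, AT1G20070, differed by -0.23 ± 0.31 (SE, adjusted p = 0.752) in pPEP, with responses elsewhere from -2.61 to -1.21. AT1G14550, AT5G52670 and XTH18 kept their call when any 1 array was left out. AT1G78410 did not without hypoxia replicate 1 (1.73, adjusted p = 0.067), nor AT2G25460 without hypoxia replicate 2 (1.98, adjusted p = 0.0558). AT3G10720 lost it without any 1 pPEP array, AT5G18470 without control replicate 2 or either hypoxia array, and AT1G20070 without control replicate 2 (1.21) or hypoxia replicate 2 (1.42).

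The 8 largest negative differences among named genes held genes with a negative response in pPEP and genes that rose there, but less than elsewhere. AT1G61930, whose protein holds the senescence-associated DUF584 domain, had 7.23 and 6.80 under hypoxia, against 9.14 and 9.50 in control, and responses elsewhere were -1.01 to 0.73, a difference of -2.08 ± 0.36 (SE, adjusted p = 9.2e-04). AT2G38300, a myb-like transcription factor gene, had 4.52 and 4.08 under hypoxia, against 6.97 and 5.35 in control. Its difference of -1.55 ± 0.23 (SE, adjusted p = 1.5e-04) became -0.74 without control replicate 1, the higher of the 2 control arrays, and was then not called. The sugar transporter gene AT5G18840 had 5.75 and 5.86 under hypoxia, against 8.39 and 6.89 in control, and its difference of -1.40 ± 0.29 (SE, adjusted p = 0.00622) likewise became -0.66 without control replicate 1 and lost its call without either hypoxia array. AT3G32040 (-1.41), AT1G74470, a geranylgeranyl reductase of chlorophyll and tocopherol synthesis (-1.33), and the patellin lipid-transfer gene AT1G30690 (-1.30) also responded lower in pPEP than elsewhere. CP5, a START-domain lipid-binding protein, rose in pPEP by 1.08 ± 0.28 (SE, adjusted p = 0.00499), a call lost without control replicate 1 (0.95) or hypoxia replicate 1 (adjusted p = 0.05002) and in the fit of the 4 pPEP arrays alone (adjusted p = 0.0513). Its response was 2.17 to 2.91 elsewhere, a difference of -1.47 ± 0.29 (SE, adjusted p = 0.00512). AT1G26730, a homologue of the phosphate exporter PHO1, rose by 1.66 ± 0.22 (SE, adjusted p = 1.4e-07), against 1.88 to 3.60 elsewhere, a difference of -1.30 ± 0.23 (SE, adjusted p = 0.00151). AT1G61930 and AT1G26730 kept their call when any 1 array was left out. The other 6 did not: AT3G32040 lost it without control replicate 2 (-1.15) or hypoxia replicate 1 (-1.26), CP5 without control replicate 2 (-1.34) or hypoxia replicate 2 (-1.42), AT1G30690 without either control array or hypoxia replicate 2 (-0.95), and AT1G74470 without control replicate 2 (-1.07), without either hypoxia array and without some single arrays of other lines.

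**Figure D5:**
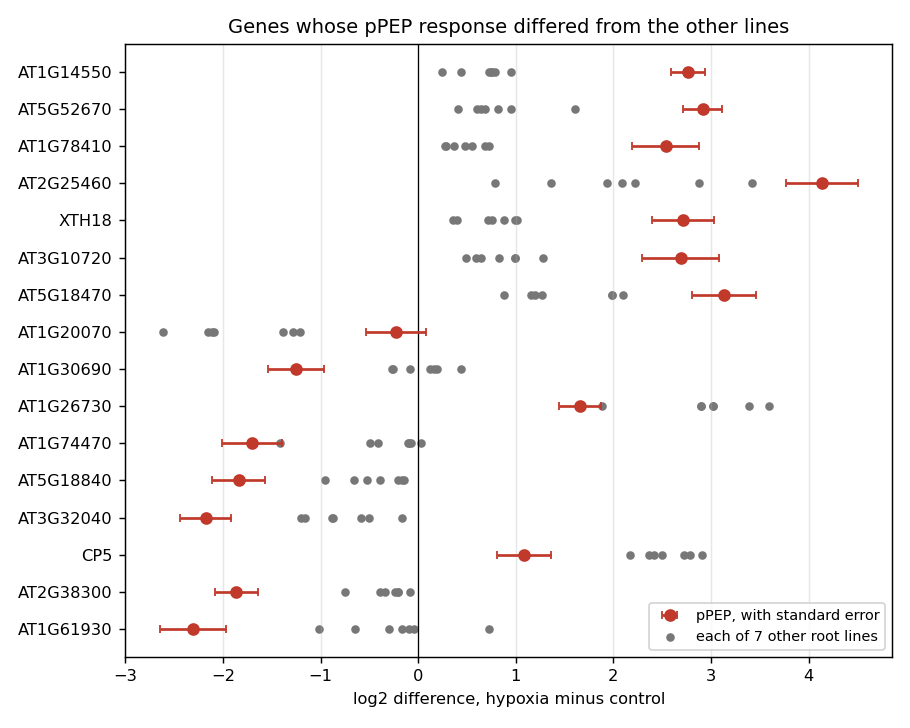
Hypoxia response (log2, hypoxia minus control) of the 16 named genes, 8 in each direction, whose pPEP response differed most from the mean of 7 other root lines. The pPEP line is in red with its standard error and each other line in grey. The upper 8 genes respond higher in pPEP and the lower 8 lower, among which CP5 and AT1G26730 rise in every line but least in pPEP.

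The other cortex line, pCO2, allowed a comparison of 2 cortex populations, which were not alike in control. Markers of dividing cells had lower control means in pPEP than in pCO2: 6.85 against 8.78 for AUR1, 5.75 against 8.18 for AUR2 and 6.11 against 7.58 for PRL. The part of this in the differences of response was not tested. The response was higher in pPEP than in pCO2 for 100 probe sets (0.44%) and lower for 106 (0.466%). Single arrays set these counts: they were 18 and 8 without pPEP hypoxia replicate 2, 37 and 8 without pCO2 control replicate 2, 34 and 16 without pCO2 hypoxia replicate 1, 30 and 55 without pCO2 hypoxia replicate 2, and 123 and 189 without pCO2 control replicate 1. With each array centred on its median they were 93 and 186. Fitted with the 8 arrays of the 2 lines alone, limma called 0 in either direction, with 984 higher and 1219 lower at an unadjusted p under 0.05. AT5G52670 was the 1 gene of the 16 named that kept its call without any 1 array, with a response of 2.91 in pPEP and 0.82 in pCO2 (2.1 ± 0.28 SE, adjusted p = 2.4e-05). The largest positive difference was that of AT2G17080, a DUF241 gene, which responded by 1.73 in pPEP and -1.25 in pCO2 (2.99 ± 0.64 SE, adjusted p = 0.0133). The largest negative one was that of the subtilisin-like protease gene ARA12, at -1.85 in pPEP and 0.43 in pCO2 (-2.29 ± 0.46 SE, adjusted p = 0.007). Without pPEP hypoxia replicate 2 the first became 2.80 and the second -1.90, neither of them called. Hop3, a co-chaperone of heat shock proteins, responded by 0.46 in pPEP and 2.46 in pCO2 (-2.00 ± 0.47 SE, adjusted p = 0.0251). The receptor kinase gene AT4G28650 responded by -1.72 ± 0.27 (SE, adjusted p = 5.1e-06) in pPEP and by 0.26 in pCO2.

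Against p35S the response was higher in pPEP for 64 probe sets (0.281%) and lower for 36 (0.158%). These counts became 95 and 75 without pPEP control replicate 1, 36 and 42 without pPEP control replicate 2, 37 and 25 without pPEP hypoxia replicate 1, 45 and 9 without pPEP hypoxia replicate 2, and 33 and 21 without p35S hypoxia replicate 1. Fitted with the 9 arrays of the 2 lines alone, limma called 6 higher and 0 lower, with 790 and 974 at an unadjusted p under 0.05. AT2G25460 responded by 4.14 in pPEP and 1.07 in p35S, a difference of 3.06 ± 0.49 (SE, adjusted p = 2.8e-04). The protein kinase gene AT1G72540 had 9.38 and 8.93 under hypoxia, against 4.95 and 5.13 in control in pPEP, a rise of 4.11, and responded by 1.39 in p35S (2.72 ± 0.43 SE, adjusted p = 2.1e-04). AT1G14550, AT5G52670 and XTH18 responded by 0.22, 0.39 and 0.21 in p35S, with differences of 2.55, 2.52 and 2.51. These 5 genes kept their call without any 1 array. AT1G48670 was the 1 gene that did so among the 8 largest named negative differences, with a response of -2.04 in pPEP and -0.44 in p35S (-1.60 ± 0.31 SE, adjusted p = 0.00403). AT1G33050, a core hypoxia gene, stood on opposite sides of its comparisons: it rose by 2.26 in pPEP, and responded by 4.33 in pCO2 and -0.19 in p35S. Its difference from pCO2 was -1.46 without pPEP hypoxia replicate 2 and was then not called. Its difference from p35S was 1.83 without pPEP hypoxia replicate 1 and was likewise not called. In limma's fit of the 4 pPEP arrays alone its rise had an adjusted p of 0.0516.

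Plastid-encoded genes, grouped by their plastid locus tag after their values had been seen, were higher under hypoxia in part. Of 69 measured, 11 rose and 0 fell, against 3.51% and 2.91% of all probe sets, and 4 rose in the fit of the 4 pPEP arrays alone. The median difference was 0.54, and the median level was 5.88 and 6.30 under hypoxia, against 5.15 and 5.75 in control. Control replicate 1 was the lowest of the 4 arrays. Without it 3 rose and the median was 0.16; without control replicate 2, hypoxia replicate 1 or hypoxia replicate 2 the numbers that rose were 16, 10 and 5. None of the 69 was called for a response differing from the other 7 lines, a test that called 0.255% of all probe sets higher and 0.145% lower. At those shares 0 calls among 69 cannot set these genes apart. The median response of the 69 in the other lines ran from -0.09 to 0.45. Whether RNA of these genes was bound to the tagged ribosomes or carried along in the capture was not tested.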

How the data were processed

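Messenger RNA of seedling cell populations was measured on 79 Affymetrix ATH1 arrays, of which 4 are root pPEP arrays. The deposited values are log2 signals that the authors made with RMA in the R package affy, per the submitters' processing notes, with no version given. The sources used here do not give whether RMA was run on all arrays at once. RMA includes quantile normalization, so a shift shared by most genes cannot be seen in these values. No genome build is stated and no coordinates are given.

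Names came from the platform's probe annotation and the RefSeq table of assembly TAIR10.1: 13513 have 1 gene, 503 several and 8730 no name here. Probe sets with several genes or none were tested but not named. A listed gene with several probe sets was read from its brightest one, by the mean of all arrays.

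In limma 3.58.1 (R 4.3.3), 1 linear model with a mean for each of the 36 groups covered all 79 arrays. Its moderated spread rests on 43 residual plus 4.48 prior degrees of freedom, so groups of 2 are assumed to vary like the others. P-values are two-sided and adjusted by Benjamini-Hochberg over 22746 probe sets, and a call needs an adjusted p under 0.05 and a log2 difference of at least 1. The procedure was tested on simulated data. Per the labels, replicate arrays come from separate biological experiments. Genes named are the 15 largest rises and falls without overlap between groups, the 8 largest differences of response in each direction per comparison, and members of the gene and marker lists. The members and lists were chosen with earlier results of these data known. Lists are described by counts and medians, with no test of a list.

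Alternatives were fits of the compared or root arrays only, quantile normalization, median centring, 50 added to linear values, dim probe sets left out (mean log2 under 6), an intensity trend, a replicate block, no minimum difference, and each array left out. Same-numbered pPEP arrays of the 2 conditions deviated together with a correlation of 0.229 over probe sets, but the labels tie no number to a shared experiment, so the block is only an alternative. Precision is limited by having 2 arrays per condition. The other cell populations and the shoots are not analysed here beyond the shared fit.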

Additional observations from a re-analysis of the deposited data

Results flagged for a closer look

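Each result below passed a limma test of the difference between 2 responses to hypoxia (adjusted p under 0.05 and a log2 difference of at least 1). Each is among the 8 largest in its direction among probe sets with a single named gene. Over all probe sets, the largest positive difference was 2.97 against the other lines and 3.97 against p35S. The values are the pPEP response minus that of the comparison, in log2 units.

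Against the mean of the 7 other root promoter lines, the positive differences were 2.1 for AT1G14550, 2.1 for AT5G52670, 2.05 for AT1G78410, 2.04 for AT2G25460, 1.99 for XTH18, 1.86 for AT3G10720, 1.62 for AT5G18470 and 1.61 for AT1G20070. The negative ones were -2.08 for AT1G61930, -1.55 for AT2G38300, -1.47 for CP5, -1.41 for AT3G32040, -1.40 for AT5G18840, -1.33 for AT1G74470, -1.30 for AT1G26730 and -1.30 for AT1G30690.

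Against the pCO2 line, the positive differences were 2.99 for AT2G17080, 2.68 for AT3G28530, 2.21 for rps4, 2.11 for AT1G34330, 2.1 for AT5G52670, 2.03 for AT5G01870, 1.97 for AT5G18470 and 1.92 for AT1G20070. AT3G28530 is read by a probe set that may also bind related transcripts, and rps4 is plastid-encoded. The negative differences were -2.29 for ARA12, -2.07 for AT1G33050, -2.00 for Hop3, -1.98 for AT4G28650, -1.97 for AT4G30380, -1.96 for AT1G04850, -1.93 for AT1G17145 and -1.85 for AT5G66060.

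Against p35S, the positive differences were 3.06 for AT2G25460, 2.72 for AT1G72540, 2.55 for AT1G14550, 2.52 for AT5G52670, 2.51 for XTH18, 2.45 for AT1G33050, 2.45 for AT1G78410 and 2.24 for AT5G39580. The negative ones were -2.35 for AT1G61930, -1.86 for AT5G18840, -1.78 for AT3G32040, -1.75 for AT1G66440, -1.63 for AT2G38300, -1.60 for AT1G48670, -1.58 for AT2G47950 and -1.57 for AT2G34610. All 3 comparisons use the same 4 pPEP arrays. When any 1 array was left out, 5 of the 16 kept their call against the other lines, 1 of 16 against pCO2 and 6 of 16 against p35S.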

How the results depend on the processing

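No called difference of a named gene changed sign under any alternative run, but which direction held more calls did change with the array left out (the paired counts stand with each comparison). Counts are given as higher and then lower in pPEP. For hypoxia against control (799 and 663), leaving out 1 pPEP array gave 698 to 902 higher and 524 to 882 lower. The 4 arrays fitted alone gave 512 and 231, 50 added to the linear values gave 403 lower, no minimum difference gave 1231 and 1575, and quantile normalization gave 822 and 539. Against the 7 other lines (58 and 33), leaving out 1 array gave 27 to 74 and 8 to 77. The compared arrays alone gave 18 lower, the root arrays alone 21 lower, and leaving out dim probe sets 29 higher. Against pCO2 (100 and 106), leaving out 1 array gave 18 to 123 and 8 to 189. The compared arrays alone gave 0 and 0 in limma, with 984 and 1219 at an unadjusted p under 0.05. The root arrays alone gave 40 and 39, dim probe sets left out gave 60 higher, and median centring gave 186 lower. Against p35S (64 and 36), leaving out 1 array gave 33 to 95 and 9 to 75. The compared arrays alone gave 6 and 0 in limma (790 and 974 at an unadjusted p under 0.05), the root arrays alone 10 lower, and dim probe sets left out 28 and 12. With the replicate block the counts were 840 and 713 for hypoxia against control, 89 and 75 against the other lines, 289 and 419 against pCO2, and 137 and 78 against p35S. No block was fitted for the pPEP controls against the other lines, since a block of line and number holds 1 control array. For single genes, list counts and list medians, 5058 recomputed values kept their side of the threshold or their size, 434 lost a call and 13 gained one. Another 124 were list counts that moved by over 1.5 times or list medians that moved by more than the spread of replicate arrays. The 4, 8 and 9 arrays compared within pPEP, with pCO2 and with p35S leave few residual degrees of freedom when fitted alone. The comparison with the 7 other lines has 33 arrays and leaves more. The cause of the shifts was not tested.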

Other observations

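The pPEP calls with a gene symbol, 71 higher and 42 lower probe sets, held further genes that no comparison above names. They were picked here after their values had been seen. Those given by value kept their call for hypoxia against control when any 1 array was left out, unless said otherwise. The glutamine amidotransferase-like gene GAT1_2.1 had 13.15 and 12.98 under hypoxia, against 9.42 and 8.20 in control (4.26 ± 0.56 SE, adjusted p = 1.5e-07), and its second probe set, not called without hypoxia replicate 2 (0.87, adjusted p = 0.0775), differed by 1.32. The asparaginase ASPGB1 rose by 2.77 ± 0.33 (SE, adjusted p = 9.2e-09) and methionine gamma-lyase MGL by 2.11 ± 0.37 (SE, adjusted p = 4.3e-05). CCR2, a cinnamoyl-CoA reductase induced in defence, rose by 2.97 ± 0.33 (SE, adjusted p = 1.4e-09), and FHL, a partner of the light-signalling protein FHY1, by 2.96 ± 0.32 (SE, adjusted p = 7.5e-10). The ubiquitin ligases PUB23 (2.06 ± 0.28 SE, adjusted p = 2.3e-07) and PUB22 (1.71 ± 0.32 SE, adjusted p = 1.1e-04), which damp immune signalling, rose, as did the gibberellin receptor GID1A (2.19 ± 0.45 SE, adjusted p = 4.3e-04). The glucosyltransferases UGT73B4 and UGT73B5 rose by 2.19 and 1.54, while UGT72E3 and UGT72B3 differed by -1.74 and -1.46. Of 47 measured genes with a UGT symbol, 2 rose, 3 fell and 42 were not called, against 3.51% higher and 2.91% lower over all probe sets. Fitted with the 4 pPEP arrays alone, UGT72B3 was not called (adjusted p = 0.0731).

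Among the lower genes, the cation exchanger CHX16 had 6.93 and 6.62 under hypoxia, against 9.11 and 8.22 in control (-1.89 ± 0.27 SE, adjusted p = 6.1e-07). The light-harvesting protein gene LHCB4.2 had 6.22 and 6.78 under hypoxia, against 8.00 and 8.02 in control (-1.51 ± 0.24 SE, adjusted p = 7.3e-06). Its response was -1.28 ± 0.26 (SE, adjusted p = 0.00527) against the other lines, which responded by -0.76 to 0.15. That difference of responses was not checked with an array left out. The jasmonate transcription factor MYC4 fell by 1.34 on the log2 scale, the plasmodesmata-linked QKY by 1.24 and the exocyst subunit EXO84B by 1.20. FER, the receptor kinase FERONIA, differed by -1.42 ± 0.38 (SE, adjusted p = 0.00772), but was not called without control replicate 2 (-1.18) or hypoxia replicate 1 (-1.32). Of the symbol-named calls, 39 of the 71 higher and 13 of the 42 lower kept their call without any 1 array.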
